A study of Homo sapiens with 8 samples.

Results

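The nuclear-encoded subunits of the mitochondrial respiratory chain were examined in mRNA libraries of HGC27 cells that overexpress GFP or a p53 mutant. The members are 53 of the 25435 genes in the count table, chosen by name as listed subunits: 24 of complex I, 4 of complex II, 7 of complex III, 10 of complex IV and 8 of complex V. No measured value entered that choice, although it was made with earlier results of these data known. All 53 passed the filter on low counts, which kept 13213 genes.

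The respiratory chain sits in the inner mitochondrial membrane and passes electrons from NADH and succinate to oxygen. Complex I (NADH dehydrogenase), complex III (the cytochrome bc1 complex) and complex IV (cytochrome c oxidase) pump protons as they do so, complex II (succinate dehydrogenase) feeds in electrons without pumping, and complex V (ATP synthase) uses the proton gradient to make ATP. Most subunits are encoded in the nucleus and imported, and in each complex other than II they are joined by subunits encoded in mitochondrial DNA.

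HGC27 is a human gastric cancer cell line, which the labels describe as lacking p53. The 4 groups were cells overexpressing GFP, the control, or p53 carrying the substitution R175H, R248Q or R273H, with 2 libraries each and 8 in all. No other treatment, time or clone was labelled, nor whether the 2 libraries of a group came from separate cultures, so p-values measure the spread between these libraries, which may be technical. R175H is known as a mutant that disturbs the fold of the DNA-binding domain, and R248Q and R273H as mutants of residues that touch DNA. Library totals ran from 6800463 to 11788035 counts.

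Of 3 mesenchymal markers VIM was at 4608 to 5728 CPM (its share of the library's counts, scaled by TMM) and FN1 at 33.1 to 45.3 CPM, whereas CDH2 had 2 to 10 counts. The epithelial markers KRT18, KRT19, EPCAM and CDH1 had at most 3 counts in any library, KRT8 was at 0.336 to 3.34 CPM, and the gastric differentiation genes TFF1, TFF2, GKN1 and GIF had 0 counts. The gastric and epithelial identity of the line was therefore not visible in these markers. Of the blood markers CD3E and HBB were at 0, PTPRC had at most 5 counts and CD68 had 9 to 19 counts in every library. Of the endothelial markers CDH5 was at 0, and PECAM1 and VWF had at most 1 count. The replicates of GFP were the least alike, with a chi-square per degree of freedom over genes of 5.72, against 1.21 to 1.6 in the mutant groups. Results against GFP are therefore given with both control libraries and against each one alone.

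Promoters of respiratory genes are known for sites of NRF1, of ETS-family factors such as GABP, and of YY1. RefSeq promoter windows, 250 bases before to 50 after the transcription start on GRCh38.p14, matched 44 of the 53 members. The 4 windows below end 30 bases after the start: the promoters of NDUFS7 and ATP5O, the members that passed the test in a comparison, and of SDHD and UQCRH, as examples with NRF1 and ETS letters. Capitals mark matches to the NRF1 letters (GCGC, any pair of bases and GCGC again), to CCGGAAG or its reverse complement (ETS and GABP), or to AANATGGCG or its reverse complement (YY1).
NDUFS7: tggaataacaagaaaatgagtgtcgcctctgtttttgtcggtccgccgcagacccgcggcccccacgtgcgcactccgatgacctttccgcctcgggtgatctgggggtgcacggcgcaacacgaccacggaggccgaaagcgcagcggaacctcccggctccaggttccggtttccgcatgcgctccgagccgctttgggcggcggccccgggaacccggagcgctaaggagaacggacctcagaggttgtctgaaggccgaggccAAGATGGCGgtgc
ATP5O: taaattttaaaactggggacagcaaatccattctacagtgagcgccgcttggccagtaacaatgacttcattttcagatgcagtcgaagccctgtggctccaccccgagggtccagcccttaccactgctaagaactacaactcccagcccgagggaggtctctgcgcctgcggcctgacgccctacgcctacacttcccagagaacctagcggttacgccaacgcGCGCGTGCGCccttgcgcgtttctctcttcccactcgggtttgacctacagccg
SDHD: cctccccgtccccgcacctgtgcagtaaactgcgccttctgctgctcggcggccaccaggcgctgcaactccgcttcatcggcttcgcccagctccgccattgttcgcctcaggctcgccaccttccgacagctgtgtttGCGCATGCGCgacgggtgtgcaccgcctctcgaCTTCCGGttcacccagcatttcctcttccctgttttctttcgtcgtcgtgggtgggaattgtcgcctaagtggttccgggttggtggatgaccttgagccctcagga
UQCRH: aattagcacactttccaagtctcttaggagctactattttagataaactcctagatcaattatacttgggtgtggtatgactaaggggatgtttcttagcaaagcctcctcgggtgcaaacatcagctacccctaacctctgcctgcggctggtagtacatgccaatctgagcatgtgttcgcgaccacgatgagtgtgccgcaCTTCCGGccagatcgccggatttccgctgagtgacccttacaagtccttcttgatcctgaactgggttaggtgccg
The NDUFS7 window lay on the plus strand at chr19:1383657-1383936 and held AAGATGGCG from position 18, where positions count from the transcription start and are negative before it. The ATP5O window lay on the minus strand at chr21:33915775-33916054 and held GCGCGTGCGC from position -24. In the SDHD window, on the plus strand at chr11:112086623-112086902, the palindromic form of the NRF1 letters began at position -110 and CTTCCGG at -77. The UQCRH window, on the plus strand at chr1:46303448-46303727, held CTTCCGG from -46.

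Letters of at least one of these 3 motifs were found in 28 of the 44 member windows, 63.6%, against 36.8% of the windows of genes that passed the count filter and 20% of all windows of the table. Searched on both strands, the NRF1 letters were in 10 member windows (22.7% against 16.3% of those of tested genes), the ETS letters in 15 (34.1% against 19.2%) and the YY1 letters in 12 (27.3% against 7.1%). The letters AAGGTCA, known from sites of estrogen-related receptors, were in 5 (11.4% against 2.41%). The core letters ACGTG and GCGTG, which hypoxia-inducible factors bind, were in 9 (20.5% against 26.8%) and 19 (43.2% against 51.4%). The NRF1 letters can hold GCGTG, so these counts overlap. A match of letters is a description of the sequence and not a measured site.

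Per kilobase of transcript, NDUFB9, an accessory subunit of complex I, had the highest level of the members at 2428 CPM per kb over the 8 libraries. The next gene of complex I, NDUFA13, a subunit also known as GRIM-19, was at 341 CPM per kb. ATP5B (now ATP5F1B), the catalytic beta subunit of ATP synthase, came second among the 53 at 1370 CPM per kb. NDUFA9, a complex I subunit with the longest transcript of the members in the annotation, was lowest at 27.8 CPM per kb. Before division by that length, 4502.5 nt, its mean was 125 CPM, and NDUFC2 was the lowest member at 22.2 CPM. The 3 genes that neighbour each other at the NDUFB9 locus were not alike: TATDN1 was at 302 and MTSS1, whose exons overlap NDUFB9 on the opposite strand, at 29.2 CPM per kb. These neighbours were chosen after the level of NDUFB9 was seen.

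The median level differed between complexes. It was 113 CPM per kb in complex I, 98.2 in complex II, 232 in complex III, 278 in complex IV and 344 in complex V. Complexes I and V held 35.1% and 35.5% of all counts of the members, complex IV 14.5%, complex III 11.7% and complex II 3.27%. Exons of 25 members share bases with another gene of the GENCODE 29 annotation, 36 have named pseudogenes, and the sources used here do not give the strand setting of the counts, so their reads cannot be told apart from those of such genes. In complex II the 4 genes lay close together, from SDHB at 77.8 to SDHC at 165 CPM per kb, whereas in complex III the Rieske protein UQCRFS1 was at 59.1 and UQCRH at 343 CPM per kb. Before division by their lengths, 3475 and 604 nt, UQCRFS1 and UQCRH were at 205 and 207 CPM.

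**Figure D1:**
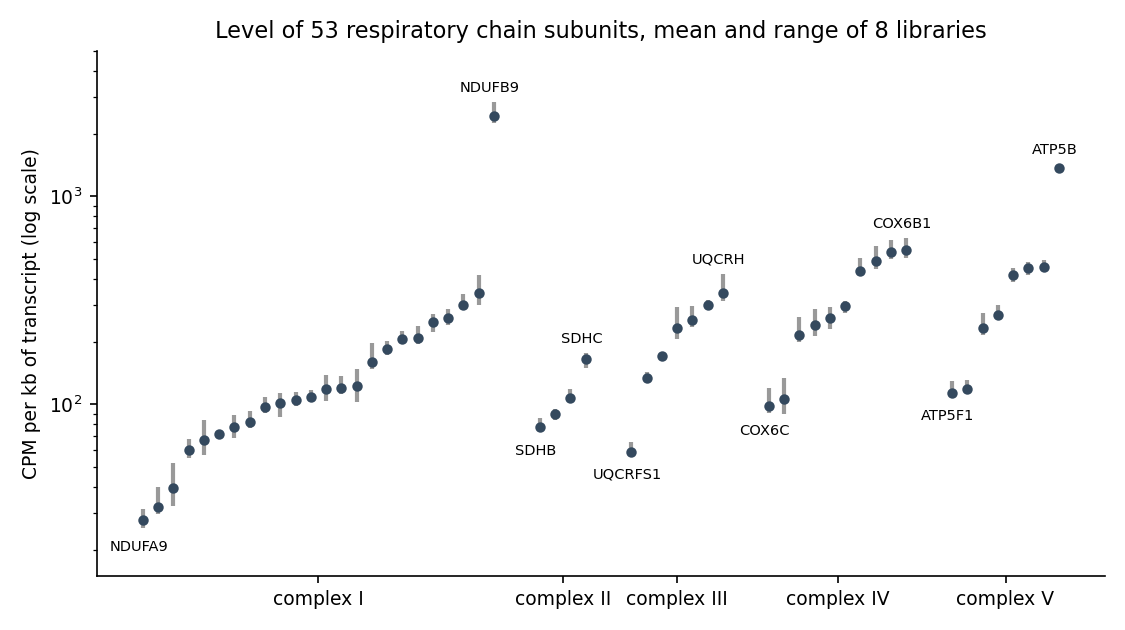
Level of each of the 53 subunits in CPM per kilobase of transcript on a log axis, grouped by complex and ordered by level; points are means of 8 libraries and bars the range over them. NDUFB9 at 2428 and ATP5B at 1370 stand above the rest, and the lowest and highest gene of each complex are named.

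For most members the library that stood apart was one of the 2 controls. GFP-1 was the highest of the 8 libraries for 48 of the 53 members, against 22% of all tested genes. It was above GFP-2 for 52 members, against 48.1% of all tested genes. The exception was CYC1, the cytochrome c1 of complex III. In RNA from whole cultures, fewer cells with a transcript and less of it per cell cannot be told apart. The members took 1.51% of the counts of GFP-1, 1.34% of GFP-2 and 1.31% to 1.39% of the mutant libraries. GFP-2 lay within the range of the 6 mutant libraries for 45 of 53, against 65.6% of all tested genes.

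In log2 units the median member was 0.21 higher in GFP-1 than in GFP-2, with a range of -0.016 to 0.43. Between the replicates of R175H, R248Q and R273H the median was -0.06, -0.006 and -0.05. All 24 members of complex I, 4 of complex II, 10 of complex IV and 8 of complex V were higher in GFP-1, as were 6 of 7 in complex III. The medians ran from 0.15 in complex III through 0.17 in complex V, 0.18 in complex II and 0.23 in complex I to 0.28 in complex IV. In the same order the median transcript lengths fell, from 1240 nt through 1026, 1007 and 795.5 to 590 nt. Whether length accounts for the order of the complexes was not tested.

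**Figure D2:**
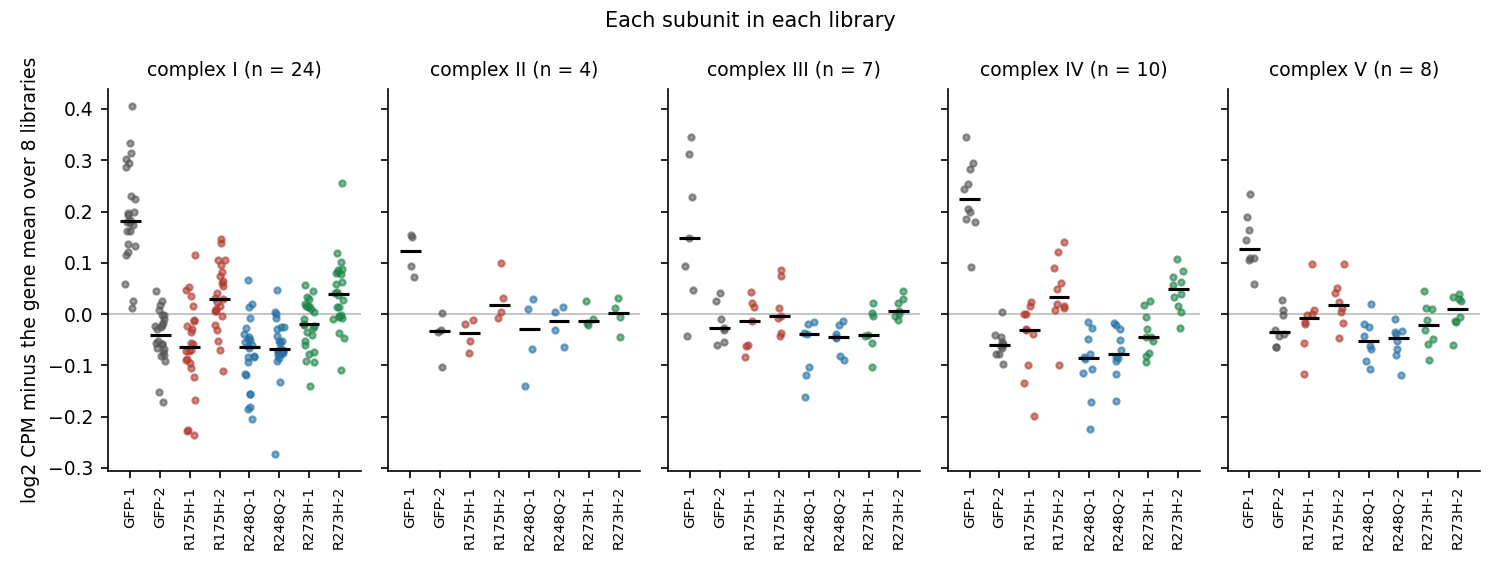
Log2 CPM of each subunit in each library minus its mean over the 8 libraries, by complex; each point is a gene and each bar the median. GFP-1 medians lie between 0.12 in complex II and 0.22 in complex IV, while every other library has complex medians between -0.086 and 0.048.

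Members have short transcripts, with a median of 761 nt (454 to 4502.5 nt) against 2539 nt for all tested genes. Among the 29 members shorter than 800 nt the median difference of GFP-1 from GFP-2 was 0.27, and among all genes of that length with a mean above 8 CPM it was 0.22. From 800 to 1500 nt it was 0.19 for 13 members and 0.14 for all genes. In genes of 1500 nt or longer it was 0.17 for 11 members and -0.047 for all genes. Over the 53 genes the difference and log2 length had r = -0.43 and rho = -0.42, and over 9976 genes r was -0.58. These are descriptions over genes of the same 2 libraries, whose counts share depth. With a length term for each library in the fit, the members' median log2 fold change against GFP was -0.005 in R175H, -0.027 in R248Q and -0.017 in R273H. Of 53 members 29, 34 and 34 were then below 0. By complex, the medians of that fit ran from -0.061 in complex IV to 0.036 in complex II, both in R248Q.

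**Figure D3:**
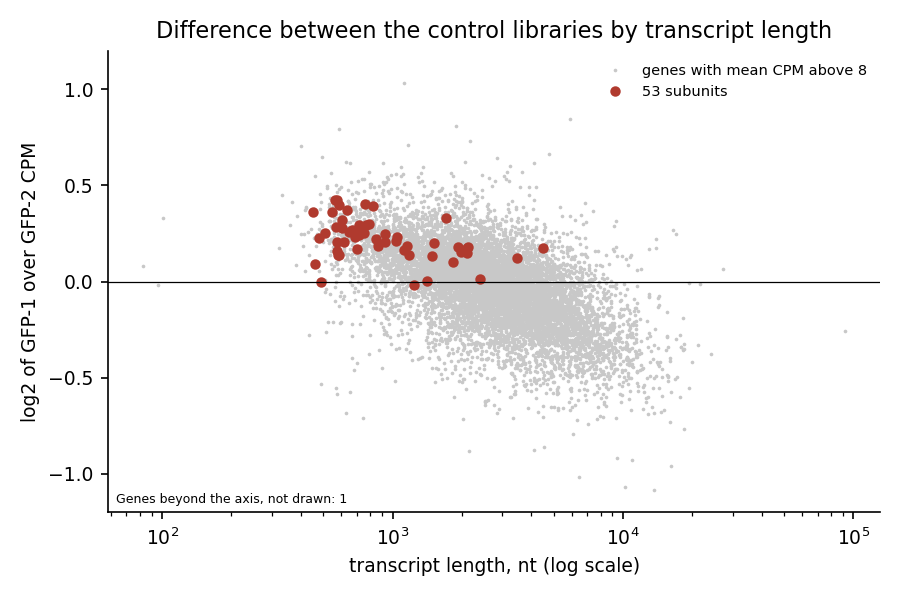
Log2 ratio of GFP-1 over GFP-2 CPM for each gene (vertical) against transcript length in nt on a log axis; grey points are genes with a mean above 8 CPM and red points the 53 subunits. The subunits sit mostly at short lengths and above 0, from -0.016 to 0.43, in the upper part of a slope that spans all genes.

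With both controls, no member was called higher or lower in R175H against GFP at an edgeR quasi-likelihood adjusted p below 0.05, where 6.39% of all genes were called higher and 4.59% lower. At an unadjusted p under 0.05, 1 member was higher and 7 lower, and DESeq2 also called 0. In R248Q no member was called higher, against 4.88% of genes, and ATP5O alone was called lower, against 1.44%. At an unadjusted p under 0.05 this comparison had 22 members lower and 0 higher. The share of all genes at an unadjusted p is not given here or below, so such counts have no background to be judged by. In R273H the counts were 0 and 0, against 0.757% and 0.25% of genes, with 4 members lower at an unadjusted p and 0 called by DESeq2. The limma-voom fit called 0 members in R175H and R273H, and ATP5O in R248Q.

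In all 3 comparisons, which share the GFP libraries, most members lay slightly below 0. The members' median log2 fold change was -0.08 in R175H, -0.13 in R248Q and -0.073 in R273H, and the medians of all tested genes were 0.01, -0.008 and -0.001. Of 53 members, 42, 51 and 45 were below 0, against 48.0%, 51.7% and 50.3% of all tested genes. The 95% intervals of the members' changes were narrow: 51, 50 and 52 of them lay within 0.5 log2 units of 0 on either side.

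These shifts depended on the control library. Against GFP-2 alone, with the mutant groups as before, the medians were 0.041, -0.029 and 0.041 in R175H, R248Q and R273H, and 17, 39 and 13 members were below 0. Against GFP-1 alone they were -0.18, -0.24 and -0.18. The calls moved in the same way: 32, 42 and 31 members were called lower and 0 higher against GFP-1 alone, where 11.4%, 11.9% and 6.88% of all genes were called lower and 13.6%, 13.6% and 9.8% higher.

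Against GFP-2 alone 0 members were called lower in any of the 3 mutants, where 5.42%, 1.14% and 0.458% of genes were. NDUFS7 was called higher in R175H and R273H and no member in R248Q, where 6.41%, 1.08% and 3.13% of genes were called higher. In the fits against 1 control library, that library is assumed to vary like the replicates of the mutant groups. The GFP replicates were less alike than those, with a chi-square per degree of freedom of 5.72 against 1.21 to 1.6. Calls and p-values from these fits may therefore overstate the evidence.

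**Figure D4:**
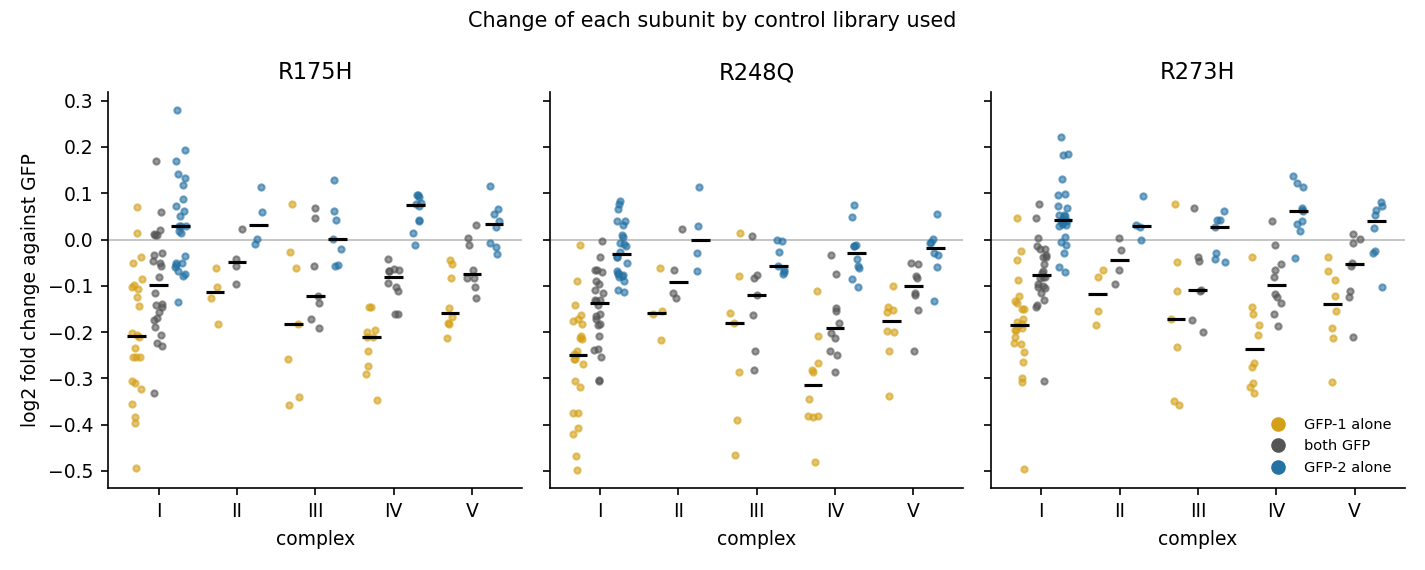
Log2 fold change of each subunit against GFP (vertical) by complex, with GFP-1 alone, both GFP libraries or GFP-2 alone as the control, for R175H, R248Q and R273H; bars are medians over the genes of a complex. Medians against GFP-1 alone lie between -0.11 and -0.32, and against GFP-2 alone between -0.058 and 0.074.

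In complex I, the entry point for electrons from NADH, the median change against GFP was -0.097 in R175H, -0.14 in R248Q and -0.077 in R273H. Of 24 members, 18, 24 and 21 were below 0, and against GFP-2 alone 9, 16 and 5. None of the 24 passed the test against both controls in any mutant.

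NDUFS7 carries an iron-sulfur cluster of the arm that hands electrons to ubiquinone. It was at 268 and 232 CPM in GFP-1 and GFP-2, with R175H at 279 and 284, R248Q at 231 and 245, and R273H at 253 and 274. The R175H libraries were the 2 highest of the 8 and did not overlap with R248Q, which overlapped with GFP.

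Against GFP, NDUFS7 in R175H had a log2 fold change of 0.17 ± 0.069 (SE, n = 2 against 2, edgeR adjusted p = 0.13). Against GFP-2 alone the value was 0.28 ± 0.054 (adjusted p = 8.6e-05, edgeR) and in R273H 0.19 ± 0.052 (adjusted p = 0.048, edgeR). No other member was called against GFP-2 alone. The NDUFS7 promoter, printed above, is 1 of the 12 member windows with the YY1 letters. It also holds ACGTG and the reverse complement of AAGGTCA. A link of any of these letters to the values was not tested.

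NDUFB3 and NDUFC2 are small accessory subunits of the membrane arm. NDUFB3 was at 46.0 and 35.8 CPM in GFP-1 and GFP-2, with R175H at 31.1 and 33.8, R248Q at 31.6 and 34.8, and R273H at 37.6 and 43.5. The R273H libraries lay above both libraries of the other mutants, and GFP spanned them. Its changes of -0.33 in R175H and -0.30 in R248Q did not pass the test (edgeR adjusted p = 0.09 and 0.12).

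NDUFC2 was at 29.2 CPM in GFP-1 and between 18.3 and 23.1 CPM in the other 7 libraries. Its lowest interval bound in R248Q and R273H, -0.59, was the lowest of any member there. NDUFS1, the large subunit with several iron-sulfur clusters, was at 165 to 179 CPM in all 8 libraries, with 173 and 171 in GFP. Its change was 0.02 in R175H, -0.003 in R248Q and -0.037 in R273H.

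Complex II links the chain to the TCA cycle and has no subunit from mitochondrial DNA. Its median change was -0.049, -0.091 and -0.044 in R175H, R248Q and R273H, and against GFP-2 alone it was 0.031, 0 and 0.029. None of its 4 genes passed the test against both controls.

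SDHA, the flavoprotein that oxidises succinate, was at 199 and 176 CPM in GFP-1 and GFP-2, with R175H at 188 and 194, R248Q at 191 and 191, and R273H at 188 and 189. The 6 mutant libraries fell between the 2 controls. Its log2 fold change was 0.022 ± 0.063, 0.023 ± 0.062 and 0.004 ± 0.062 (SE) in the same order, with edgeR adjusted p of 0.86, 0.87 and 0.98. SDHAP1, SDHAP2 and SDHAP3, listed pseudogenes of SDHA, had at most 56 counts in a library, and reads shared with them cannot be placed.

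SDHB, the iron-sulfur subunit, was at 99.4 and 87.4 CPM in GFP and at 85.0 to 96.0 in the mutants. SDHD, a membrane anchor, was at 102 and 89.8 CPM in GFP and at 88.4 to 93.6 in the mutants. In both genes GFP-1 was the highest library and GFP-2 lay within the mutant range.

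In complex III, which moves electrons from ubiquinol to cytochrome c, the median change was -0.12, -0.12 and -0.11 in R175H, R248Q and R273H. It was 0.001, -0.058 and 0.026 against GFP-2 alone. None of its 7 genes passed the test against both controls.

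CYC1, the cytochrome c1 that passes electrons to cytochrome c, did not share the high value in GFP-1. It was at 361 and 365 CPM in GFP-1 and GFP-2, with R175H at 369 and 392, R248Q at 363 and 367, and R273H at 378 and 384. GFP-1 was the lowest of the 8 libraries, and CYC1 was the only member for which that library lay below all 6 mutants. Of all tested genes 26.3% had GFP-1 below all 6 mutants, and the gap in CYC1 was small, 361 CPM against 363 in R248Q-1. The changes of 0.068, 0.007 and 0.069 were not called (edgeR adjusted p = 0.45, 0.96 and 0.63).

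UQCRQ, a small accessory subunit, was at 172 and 130 CPM in GFP-1 and GFP-2, with R175H at 138 and 132, R248Q at 121 and 128, and R273H at 130 and 138. UQCRH, the hinge protein that binds cytochrome c1, was at 256 and 205 CPM in GFP-1 and GFP-2, with R175H at 198 and 206, R248Q at 190.0 and 201, and R273H at 192 and 209. In both genes GFP-1 stood apart and GFP-2 overlapped with the mutants. The change of UQCRH in R248Q was -0.24 ± 0.082 against both controls and -0.070 ± 0.055 against GFP-2 alone (SE, edgeR adjusted p = 0.095 and 0.61).

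Complex IV reduces oxygen to water, and its nuclear-encoded subunits surround a core made in mitochondria. All 10 of its members were below 0 in R175H and R248Q and 9 in R273H, with medians of -0.081, -0.19 and -0.099. Against GFP-2 alone 1, 8 and 1 were below 0, and the medians were 0.074, -0.029 and 0.063. None passed the test against both controls.

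COX6A1, a small subunit with a separate muscle isoform, was at 76.4 and 57.0 CPM in GFP-1 and GFP-2, with R175H at 52.4 and 66.3, R248Q at 51.5 and 58.1, and R273H at 59.9 and 63.3. COX7B was at 158 and 130 CPM in GFP-1 and GFP-2, with R175H at 127 and 131, R248Q at 123 and 120, and R273H at 126 and 128. Both were highest in GFP-1, and the spread of COX6A1 between replicates was wide in R175H as well.

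COX7B had a change of -0.25 ± 0.075 in R248Q (SE, edgeR adjusted p = 0.061), and of -0.10 ± 0.061 against GFP-2 alone (adjusted p = 0.45, edgeR). COX5A, a subunit on the matrix side, was at 181 and 162 CPM in GFP and at 159 to 180 in the mutants. COX7A2 was at 141 and 121 CPM in GFP and at 111 to 134 in the mutants. All 3 mutants overlapped with GFP in COX5A, while in COX7A2 both R248Q libraries lay below both controls.

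Complex V turns the proton gradient into ATP. Its medians were -0.075, -0.10 and -0.054 in R175H, R248Q and R273H, and 0.034, -0.018 and 0.039 against GFP-2 alone. It held the member called against GFP, ATP5O.

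ATP5O (now ATP5PO) encodes OSCP, the protein of the peripheral stalk that sits on top of the catalytic head. It was at 255 and 221 CPM in GFP-1 and GFP-2, with R175H at 217 and 232, R248Q at 203 and 199, and R273H at 203 and 208. All 4 libraries of R248Q and R273H lay below all 4 of GFP and R175H.

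Its change in R248Q against GFP was -0.24 ± 0.067 (SE, 95% interval -0.38 to -0.099, edgeR adjusted p = 0.043). It was -0.21 ± 0.067 in R273H (adjusted p = 0.18, edgeR) and -0.083 ± 0.068 in R175H (adjusted p = 0.47, edgeR). The call in R248Q was lost without GFP-1, at -0.13 (edgeR adjusted p = 0.17), and in DESeq2. It was lost in 12 of 19 alternative settings, among them the length offset and leaving out any one mutant library, and the value stayed between -0.34 and -0.099.

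ATP5B was at 2622 and 2447 CPM in GFP and at 2445 to 2593 in the mutants. Its changes of 0.004, -0.050 and 0.012 each had an SE of 0.05. ATP5F1 (now ATP5PB), the b subunit of the peripheral stalk, was at 248.3 and 219.0 CPM in GFP and at 208 to 218 in the mutants, which lay below both controls. ATP5D, the delta subunit of the central stalk, was at 342 and 304 CPM in GFP-1 and GFP-2, with R175H at 340.0 and 320.2, R248Q at 295 and 301, and R273H at 320 and 323. Neither of the last 2 genes was called against both controls.

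Among the mutants, the comparison does not use the controls, although their spread enters the fit. In R248Q against R175H 0 members were called higher and 1 lower, where 3.22% of genes were called higher and 3.95% lower. That gene was NDUFS7, at -0.24 ± 0.069 (SE, edgeR adjusted p = 0.045). The call was lost in 10 of 19 alternative settings, including DESeq2 and leaving out any single mutant library, with values from -0.28 to -0.19. The median member was at -0.059, all genes at 0.002, and 42 of 53 members were below 0, against 49.5% of all genes. With the length term in the fit the median was -0.015, and 33 members were below 0.

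Without GFP-1, or without GFP-2, 7 members were called lower and 0 higher in this comparison: NDUFS7, NDUFS8, UQCRC1, COX4I1, COX5B, ATP5D and ATP5O. Without GFP-1, 8.89% of all genes were called lower and 9.04% higher, and without GFP-2 8.93% and 9.07%. The change of ATP5O was -0.16 with or without that library, and its SE was 0.067 with all 8 libraries and 0.043 without GFP-1. The 7 genes belong to complexes I, III, IV and V.

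In R273H against R175H no member was called in either direction, where 1.41% of genes were called higher and 2.22% lower, and 1 member was higher at an unadjusted p under 0.05. DESeq2 and limma-voom called 0. The median was 0.002. Without GFP-1, NDUFB3 was called higher at 0.32 and ATP5O lower at -0.13, where 5.76% and 6.35% of genes were called.

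In R273H against R248Q no member was called either, where 0.00757% of genes were called higher and 0.144% lower. At an unadjusted p under 0.05, 2 members were higher and 0 lower, and DESeq2 called 0. The limma-voom fit called 0 as well. The median was 0.062, with all genes at 0.003. Of 53 members 49 were above 0 and 4 below, against 49% of all genes below 0. With the length term in the fit the median was 0.014, with 31 members above 0 and 22 below. Without GFP-1, NDUFA13, NDUFB3 and NDUFS7 were called higher, at 0.16, 0.29 and 0.15, where 1.43% of genes were.

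Further genes of the respiratory system were taken from lists of other subunits, assembly factors, regulators, TCA cycle enzymes and mobile carriers. Of 32 other subunits of the complexes 28 were tested, and in R175H 1 was called higher and 1 lower against GFP, where 6.39% of all genes were higher and 4.59% lower. Neither share of the 28 was above that background. The first was NDUFA4L2, a paralogue of NDUFA4 known as a hypoxia-induced gene. It was at 50.3 and 41.1 CPM in GFP-1 and GFP-2, with R175H at 159 and 159, R248Q at 42.4 and 44.1, and R273H at 42.9 and 43.6.

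NDUFA4L2 changed by 1.79 ± 0.082 in R175H (SE, edgeR adjusted p = 1.7e-09), and stayed called in all 19 alternative settings. NDUFA4, listed here under complex I by its name and now counted with complex IV, was not called. The second was ATP5G3, which encodes the ring subunit c of ATP synthase, at -0.22 ± 0.068 (edgeR adjusted p = 0.049), a call that was lost without GFP-1 at -0.11. COX4I2, the other isoform of subunit IV, had at most 1 count in a library, so COX4I1 was the isoform detected. In R248Q and R273H 0 of the 28 were called by edgeR, DESeq2 or limma-voom, with 11 and 2 lower at an unadjusted p under 0.05 and 0 higher. The 13 subunits encoded in mitochondrial DNA were not analysed here.

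Assembly factors build the complexes without staying in them. Of 43 tested, 7 fell in R175H against GFP, where 4.59% of all genes did, and 0 rose, where 6.39% did. DESeq2 called 3 of the 43 lower and limma-voom 7, and both called 0 higher. Of all genes DESeq2 called 2.55% lower and 3.71% higher, and limma-voom 4.34% and 6.3%. At an unadjusted p under 0.05, 2 were higher by edgeR, 2 by limma-voom and 0 by DESeq2. None of the 53 subunits passed in this comparison. The 4 with the smallest p were COA1 (-0.38 ± 0.07), TMEM70 (-0.42 ± 0.098), NDUFAF5 (-0.64 ± 0.15) and COA7 (-0.31 ± 0.082), with SE after each log2 fold change. The other 3 were COX17 (-0.56 ± 0.15), NDUFAF4 (-0.43 ± 0.12) and SCO1 (-0.28 ± 0.077). The median of the 43 was -0.085, close to that of the members, -0.08.

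Complex I assembly is the known role of NDUFAF4 and NDUFAF5, complex IV assembly that of COX17, SCO1 and COA7, and complex V assembly that of TMEM70. COA1 was at 90.9 and 87.7 CPM in GFP-1 and GFP-2, with R175H at 68.3 and 69.0, R248Q at 80.2 and 76.8, and R273H at 77.8 and 81.4, with both R175H libraries below the other 6. It stayed called in all 19 settings.

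Without GFP-1 the calls of COX17, NDUFAF4 and SCO1 were lost, 4 of the 7 were still called, and ECSIT and SURF1 were called higher at 0.18 and 0.35, where 5.42% of genes were lower and 6.41% higher. COX17 was then at -0.36, NDUFAF4 at -0.28 and SCO1 at -0.23. Leaving out either R175H library ended the calls of COX17, NDUFAF4, SCO1, TMEM70 and COA7, and leaving out R175H replicate 1 also that of NDUFAF5. Over all 19 settings NDUFAF5 ran from -0.94 to -0.44, TMEM70 from -0.51 to -0.33 and COA7 from -0.36 to -0.25. In R248Q, NDUFAF4 (-0.46 ± 0.11) and TMEM70 (-0.35 ± 0.092) fell against GFP, where 1.44% of genes did, and neither was called without GFP-1 (-0.30 and -0.25) or without either R248Q library. TMEM70 also lost that call without any single R175H or R273H library, over settings that ran from -0.44 to -0.22. In R273H 0 were called by edgeR, DESeq2 or limma-voom, with 4 lower at an unadjusted p under 0.05 and 0 higher.

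SCO2, an assembly factor of complex IV, is named here for its known biology and not by its values. It was at 46.0 and 41.6 CPM in the GFP libraries and at 37.4 to 43.7 CPM in the mutants. Its log2 fold change was -0.082, -0.21 and -0.016 in R175H, R248Q and R273H (edgeR adjusted p = 0.59, 0.14 and 0.96).

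CYCS, the soluble electron carrier between complexes III and IV, was at 474 and 411 CPM in GFP-1 and GFP-2, with R175H at 330 and 358, R248Q at 393 and 408, and R273H at 429 and 428. The R175H libraries lay below the other 6. Its change of -0.36 ± 0.067 in R175H (SE, edgeR adjusted p = 0.0024) was -0.25 without GFP-1, where it was still called, and was lost only without R175H replicate 1 among the 19 settings.

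VDAC1, the channel of the outer membrane, was the other of 21 tested carriers and entry points called in R175H, at -0.23 ± 0.056, and at -0.24 without GFP-1. In that comparison 4.59% of all genes fell and 6.39% rose. Of 13 TCA cycle enzymes IDH3A, a subunit of isocitrate dehydrogenase, fell in R175H (-0.35 ± 0.089). Of 14 tested regulators MYC rose (0.24 ± 0.052) and TFB2M, a mitochondrial transcription factor, fell (-0.31 ± 0.095), the latter not without GFP-1, at -0.21, nor without any single mutant library. Without R175H replicate 1 the calls of VDAC1, IDH3A and MYC were lost, over settings that ran from -0.28 to -0.18, -0.47 to -0.18 and 0.21 to 0.31, and MYC was also lost without replicate 2. In R248Q and R273H these 3 lists had 0 calls against GFP with both controls by edgeR, DESeq2 or limma-voom. At an unadjusted p under 0.05 in R248Q, 5 carriers and entry points and 1 TCA cycle enzyme were lower and 0 of either list higher, and 3 regulators were higher and 2 lower. In R273H 3 regulators were higher and 0 lower, and 0 of the other 2 lists passed in either direction.

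**Figure D5:**
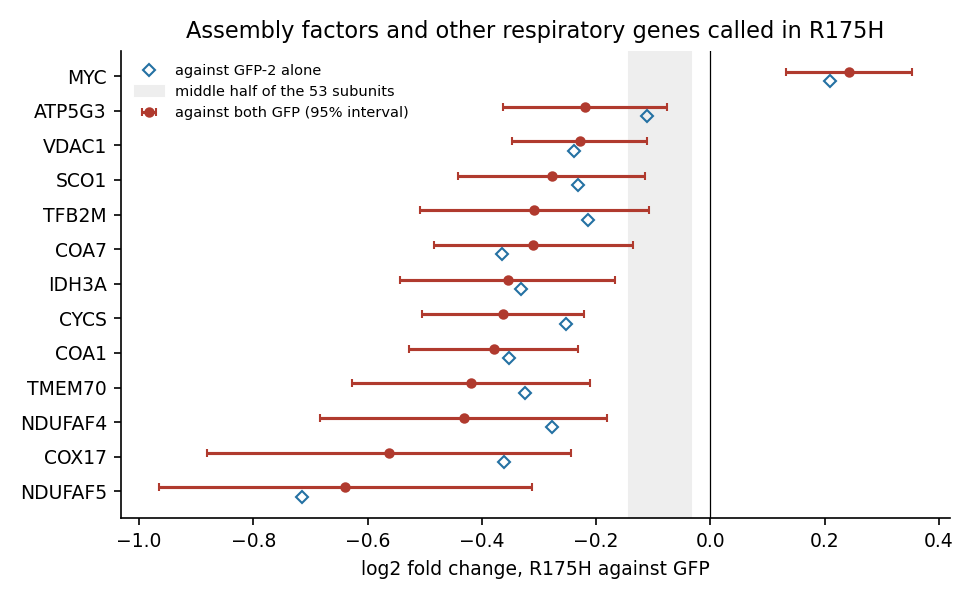
Log2 fold change in R175H against GFP of each gene of the 5 other lists that was called, apart from NDUFA4L2 at 1.79, with its 95% interval; diamonds are values against GFP-2 alone and the grey band holds the middle part of the 53 subunits, -0.14 to -0.034. COX17 moves from -0.56 to -0.36 with the control used, and COA7 from -0.31 to -0.36.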

How the data were processed

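mRNA libraries of HGC27 cells, made with a Kapa mRNA kit per the labels' protocols, were analysed. The deposited table holds raw read counts per gene symbol, made by the authors with bcl2fastq and STAR 2.5 on hg19, per the submitters' processing notes. The sources used here do not give the counting tool, annotation or strand setting. The members and the gene lists were chosen with earlier results of these data known.

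Genes were kept by filterByExpr (minimum count 10, minimum total 15), scaled by TMM (factors 0.989 to 1.01) and fitted with the quasi-likelihood test of edgeR 4.0.16 in R 4.3.3, with 1 mean per group over all 8 libraries (4 residual degrees of freedom). Each mutant was compared with GFP and with the other mutants, 6 comparisons in all. Calls were made where the Benjamini-Hochberg adjusted p over all 13213 genes tested fell below 0.05. The script was tested on simulated data. Intervals are 95%.

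CPM is the count over the TMM-scaled library size. Levels between genes are CPM per kilobase of the median basic protein-coding transcript in GENCODE 29 (a length for 97.2% of tested genes). The length offset is a loess curve of log2 CPM deviation on log2 length in each library. The members named are those called in a comparison and the largest rise and fall of each complex in each mutant against GFP. The lists gave up to 4 called genes each by smallest p. Other genes were named after their values were seen. The level of the overexpressed gene itself is not reported here.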

Additional observations from a re-analysis of the deposited data

Results flagged for a closer look

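Calls between mutants mark genes whose change against GFP differed between those mutants in a test of the difference itself. Among the 53 subunits this held for NDUFS7, at -0.24 in R248Q against R175H. Of the other lists, NDUFA4L2 was lower than in R175H, at -1.874 in R248Q and -1.873 in R273H on the log2 scale, and kept that call in all 19 alternative settings. ECSIT, a complex I assembly factor, was at -0.322 and COQ6, an enzyme of ubiquinone synthesis, at -0.412 in R248Q against R175H. The transcription factor NRF1 (0.346) and the coactivator PPRC1 (0.24) were higher in R248Q than in R175H. COA7 (0.301) and CYCS (0.316) were higher in R273H than in R175H. In R248Q against R175H, 1 of 28 other subunits, 1 of 43 assembly factors and 1 of 21 carriers and entry points were lower. There 2 of 14 regulators were higher, where 3.95% of all genes were lower and 3.22% higher. In R273H against R175H, 1 of 28 other subunits was lower. There 1 of 43 assembly factors and 1 of 21 carriers and entry points were higher, where 2.22% of all genes were lower and 1.41% higher.

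Of these, the edgeR calls of NDUFS7 and COA7 were lost in 10 of 19 alternative settings each and that of NRF1 in 9. The calls of PPRC1 were lost in 5, of COQ6 and CYCS in 4 and of ECSIT in 3.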

How the results depend on the processing

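No setting reversed a call. The SD used next, 0.082, pools the replicate pairs of all 4 groups, and the GFP pair was the widest. The median member deviated by 0.18 and -0.041 in GFP-1 and GFP-2, and by -0.067 to 0.027 in the mutant libraries. Moves smaller than this SD can therefore exceed the spread of the mutant replicates. The members' median against GFP moved by more than 1 SD between replicates (0.082) without GFP-1, to 0.041, -0.029 and 0.041 for R175H, R248Q and R273H, and without GFP-2, to -0.183, -0.24 and -0.182. It also did so with a length offset for R248Q, at -0.027, and with a length offset without GFP-1, at 0.014, 0.001 and 0.013. With each library left out in turn, it crossed 0 for R175H and R273H against GFP only without GFP-1, and ran from -0.183 to 0.041 for R175H, -0.24 to -0.029 for R248Q, -0.182 to 0.041 for R273H, -0.096 to -0.019 for R248Q against R175H, -0.029 to 0.036 for R273H against R175H and 0.04 to 0.084 for R273H against R248Q. Members called lower then numbered 0 to 32, 0 to 42 and 0 to 31 against GFP and higher 0 to 1, 0 to 0 and 0 to 1, in the same order. For R248Q against R175H they were 0 to 7 lower and 0 to 0 higher, for R273H against R175H 0 to 1 in each direction, and for R273H against R248Q 0 to 3 higher and 0 lower.

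Counts of the 53 members that moved by over 1.5 times are given here with the share of all genes tested that was called the same way in that setting. With every gene that had 1 count, 3, 12 and 1 members were lower in R175H, R248Q and R273H against GFP (4.36%, 2.42% and 0.578% of genes), and 1 was higher in R273H against R175H (1.73%). With only the groups compared, 0 were lower in R248Q against GFP (0.491%), 9 lower in R248Q against R175H (10.1%), 1 higher in R273H against R175H (4.82%) and 5 higher in R273H against R248Q (2.58%). DESeq2 called 0 in every comparison, and DESeq2 size factors or library size alone gave 0 lower in R248Q against R175H. With a length offset, 1 was higher and 3 lower in R175H against GFP (7.95% and 9.04%) and 1 higher in R273H against R175H (4.56%). The count in R248Q against GFP stayed at 1 lower with that offset (2.97%), but the member was not ATP5O. Adding the loss of GFP-1 gave 1 higher in R175H and R273H (6.63% and 1.33%) and 0 lower in R248Q against GFP (1.69%), 2 higher and 5 lower in R248Q against R175H (9.13% and 8.66%), 1 higher and 2 lower in R273H against R175H (7.61% and 6.89%) and 1 higher in R273H against R248Q (1.2%). The length offset without GFP-2, added after the data were seen, gave 3 higher and 11 lower for R175H (9.58% and 11.2%), 1 and 15 for R248Q (7.07% and 7.58%) and 1 and 10 for R273H against GFP (4.97% and 4.72%), 2 and 4 in R248Q against R175H (9.13% and 8.65%), 1 and 2 in R273H against R175H (7.61% and 6.85%) and 1 higher in R273H against R248Q (1.21%). The cause of these moves was not tested.

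Replicate numbers did not pair the libraries: deviations of same-numbered libraries correlated at -0.091 to 0.049 between groups. A replicate block left 0 members lower in R248Q against GFP and 0 in R248Q against R175H. NDUFC2, with 147 to 284 counts in a library, had SE values up to 0.144, against 0.05 for ATP5B. Its replicates also differed, at 29.2 and 21.7 CPM in GFP and 23.1 and 18.3 CPM in R248Q. Low counts and replicate spread were not separated.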
